A study of Monodelphis domestica with 2 samples.

Results

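Perineuronal nets are lattices of extracellular matrix around nerve cells, and 6 genes that encode their core proteins, link proteins, cross-linker and a binding partner are described here in the opossum visual cortex. The members were taken by symbol, namely the proteoglycans ACAN and BCAN, the link proteins HAPLN1 and HAPLN4, the tenascin TNR and the receptor phosphatase PTPRZ1. All 6 were found, once each, among the 30800 genes of the deposited annotation, of which 11590 had a symbol: ACAN (ENSMODG00000019581), BCAN (ENSMODG00000016815), HAPLN1 (ENSMODG00000038203), HAPLN4 (ENSMODG00000007055), TNR (ENSMODG00000005481), PTPRZ1 (ENSMODG00000015471). Single-nucleus RNA sequencing was done on the primary visual cortex (V1) of 2 adult male gray short-tailed opossums (Monodelphis domestica), aged 1.5 years (animal 1) and 2 years (animal 2). The animals came from a laboratory colony, the labels name no treatment or engineered allele, and the comparisons are between 18 subclasses of nuclei within the same animals. Frozen tissue of both hemispheres, freed of white matter, was pooled by animal, its nuclei were sorted for the DNA dye Draq5, and each suspension was loaded as 2 libraries (1A and 1B, 2A and 2B), summed here. The animals differed in age and were processed by different experimenters, and these cannot be told apart.

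A net is built on strands of hyaluronan. Lecticans, the chondroitin sulfate proteoglycans that include aggrecan (ACAN) and brevican (BCAN), hold on to these strands with the help of link proteins (HAPLN1 and HAPLN4), and tenascin-R (TNR) ties lecticans together at their far ends. PTPRZ1 is a transmembrane phosphatase that carries chondroitin sulfate, binds matrix and adhesion proteins, and is also released as phosphacan. In the cortex of other mammals nets are best known around fast-spiking parvalbumin interneurons, where their assembly accompanies the end of the critical period of visual plasticity, while a looser matrix of related proteins surrounds other neurons and is supplied in part by glia.

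The libraries held 55625042 to 69706055 unique molecular identifiers (UMIs, each counting as 1 captured RNA molecule) in 7749 to 10751 barcodes, and 32764 nuclei carried one of the authors' subclass labels. Any 2 libraries shared 16 to 30 barcodes, at most 0.348% of the smaller one. Levels are given in CPM, the counts of a gene scaled to the total UMIs of the summed nuclei of a subclass and animal, and are compared between subclasses, not between genes. Subclasses were drawn by the authors from the same expression values, and labels predicted without the matrix genes matched theirs for 96.1% of nuclei. Defining markers followed the labels in OPC (oligodendrocyte precursor cells; PDGFRA 985 CPM, at most 30.9 CPM elsewhere), oligodendrocytes (OD; MOG 1295 CPM) and astrocytes (Astro; GJA1 431 CPM). PVALB has no symbol in this annotation, and FREM1 stood at 62.3 CPM in Frem1 nuclei and 67.9 CPM in Lamp5 nuclei. The median nucleus held 1469 UMIs in microglia, 1917 in oligodendrocytes, 2599 in OPC, 2620 in astrocytes and 4824 to 9228.5 in the neuronal subclasses. Tests are quasi-likelihood tests in edgeR on the sums, adjusted over all genes tested, and they measure the spread between 2 animals. Endothelial nuclei numbered 65, and their levels rest on 0 to 15 UMIs per gene.

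The 6 genes were expressed in different cells. In both animals OPC, 4.11% of labelled nuclei on average, held most of the ACAN UMIs (80.2% and 67.4%) and most of the BCAN UMIs (58.3% and 58.7%). Pvalb interneurons held most of the HAPLN4 UMIs (54.4% and 54.3%). HAPLN1 was spread over astrocytes (26.9% and 25.4%), Lamp5 interneurons (19.7% and 22.1%), OPC (16.6% and 16.6%) and Pvalb interneurons (14.0% and 12.7%), and GABAergic neurons as a class held 46.5% and 46.0%. For TNR and PTPRZ1, glutamatergic neurons as a class held 55.9% and 70.2%, and 44.7% and 57.6%. Non-neuronal nuclei held 51.3% and 39.1% of the PTPRZ1 UMIs, more than glutamatergic neurons in animal 1 and less in animal 2. These shares move with the number of nuclei captured per subclass: IT_A contributed 26.8% of the labelled nuclei of animal 1 and 33.3% of those of animal 2.

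**Figure D1:**
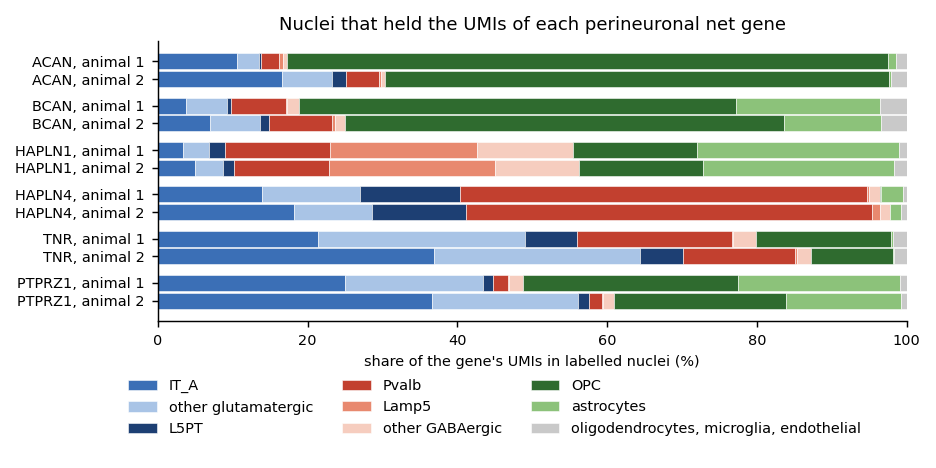
Share of each gene's UMIs in labelled nuclei (x axis, percent) by subclass or group of subclasses (colours), with 1 bar per gene and animal. OPC fill 67.4 to 80.2% of the ACAN bars and Pvalb interneurons 54.3 to 54.4% of the HAPLN4 bars, while the TNR and PTPRZ1 bars are mostly neuronal or split between neurons and glia.

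The levels by subclass were next set beside each other, gene by gene. Of the 17 neighbouring pairs in the order of subclasses by level, the animals' ranges overlapped in 16 for ACAN, 13 for BCAN, 12 for HAPLN1, 13 for HAPLN4, 11 for TNR and 10 for PTPRZ1, so most steps in the order are within the spread between 2 animals.

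**Figure D2:**
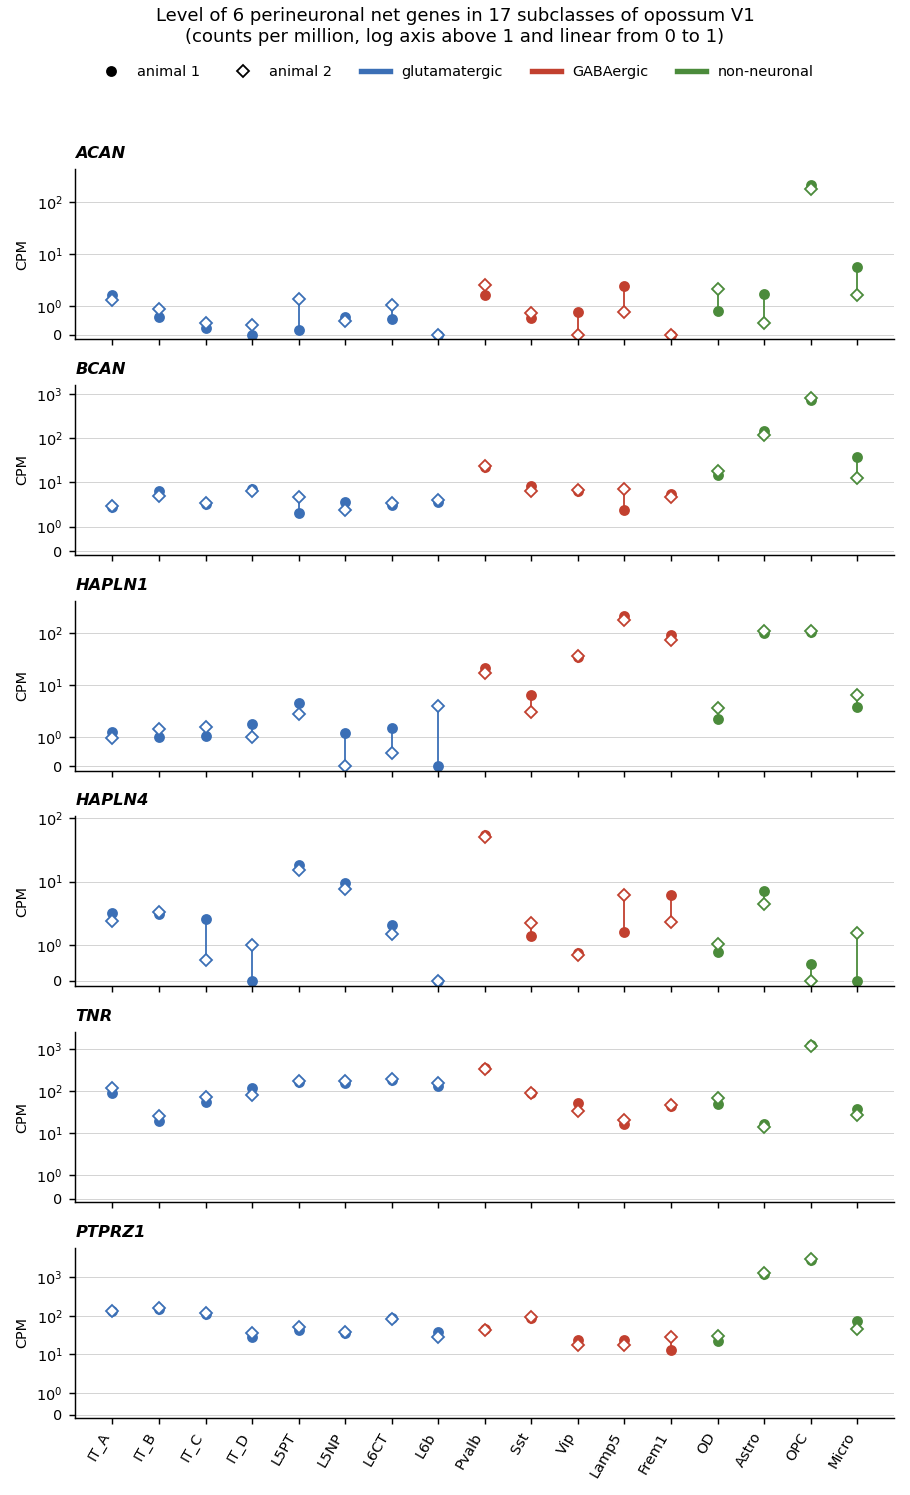
Level of each gene (y axis, CPM, log axis above 1 and linear from 0 to 1) in 17 subclasses (x axis; endothelial nuclei left out), with circles for animal 1, diamonds for animal 2 and a line joining them. ACAN stands above 100 CPM in OPC alone, HAPLN4 is highest in Pvalb nuclei at 50.5 and 53.0 CPM, and HAPLN1 in Lamp5 nuclei at 181 and 210.0 CPM.

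ACAN, the aggrecan core protein on which mature nets are commonly recognised, was found mainly in OPC. It stood at 213 CPM in animal 1 and 179.8 CPM in animal 2 in OPC, from 449 and 289 UMIs. In Pvalb interneurons it stood at 1.59 CPM in animal 1 and 2.47 CPM in animal 2, from 33 UMIs in 2146 nuclei. The ranges of the animals did not overlap between these subclasses, and the log2 fold change of Pvalb against OPC was -6.55 ± 0.40 (SE, edgeR adjusted p = 2.20e-13). Summed over all neurons, ACAN stood at 1.02 and 1.15 CPM, and OPC exceeded this 209-fold and 156-fold. Counted per 1000 nuclei rather than per UMI, OPC held 580.1 and 508 UMIs and Pvalb nuclei 12.1 and 19.2. Astrocytes, at 1.71 and 0.405 CPM, and oligodendrocytes, at 0.818 and 2.09 CPM, were far below OPC (log2 fold change of OPC 7.35 ± 0.48 (SE, edgeR adjusted p = 1.02e-12) and 6.95 ± 0.44 (SE, edgeR adjusted p = 4.20e-13)).

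Among neurons, ACAN was near the limit of what the depth can show. IT_A nuclei stood at 1.63 and 1.32 CPM from 130 UMIs, a range that overlapped that of Pvalb nuclei, and the remaining neuronal subclasses held 0 to 24 UMIs each, with 0 in L6b and Frem1 in both animals. A UMI was seen in 37.7% of OPC nuclei (17.7% after thinning), 1.30% of Pvalb nuclei (0.0933% after thinning) and 1.15% of IT_A nuclei (0.132% after thinning). Thinning reduced each nucleus of at least 1000 UMIs to 1000 and left out the 57 labelled nuclei below that depth. Microglia, which should lack ACAN, showed a UMI of it in 0.415% (3 of 723 nuclei), and after thinning in 0 of 701 (exact binomial upper limit 0.525%). Their ACAN level was 5.66 and 1.59 CPM, from 4 UMIs, a range that overlapped those of Pvalb and IT_A nuclei. The counts of PDGFRA, the receptor that marks OPC, were set beside those of ACAN. Of the summed ACAN and PDGFRA UMIs, ACAN made up 16.8% (exact binomial 95% interval 15.7 to 17.9%) in OPC, 41.8% (exact binomial 95% interval 30.8 to 53.4%) in Pvalb and 52.4% (exact binomial 95% interval 46.0 to 58.8%) in IT_A. In IT_B it made up 12 of 60 UMIs (interval 10.8 to 32.3%), in L6CT 21.2% (exact binomial 95% interval 14.1 to 29.9%) and in microglia 19.0% (exact binomial 95% interval 5.45 to 41.9%). In oligodendrocytes it made up 12 of 30 UMIs (interval 22.7 to 59.4%). Of the oligodendrocyte ACAN UMIs, 50% in animal 1 and 62.5% in animal 2 came from the small type OD_5, described below. The intervals of Pvalb, IT_A and oligodendrocytes lay above that of OPC, and those of IT_B, L6CT and microglia overlapped it. These intervals pool the UMIs of both animals and cover counting error only. The part of free RNA in the low levels was not tested.

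Nuclei called doublets by Scrublet, the authors' doublet caller, carried part of the low neuronal signal. Without them ACAN fell from 6 to 0 UMIs in IT_C, from 12 to 4 in IT_B and from 24 to 9 in L6CT, and stayed at 33 UMIs in Pvalb and 114 of 130 in IT_A. ACAN in L5PT, with 9 UMIs, then passed against the other glutamatergic subclasses (edgeR adjusted p = 0.0446), whose mean included 3 subclasses at 0. Type L6CT_4, in which 19.5% of 493 nuclei were doublet calls and PDGFRA stood at 17.9 CPM against 0.617 to 1.31 CPM in the other L6CT types, held 16 of the 24 L6CT UMIs. ACAN passed the test in Pvalb against the mean of the other 4 interneuron subclasses (edgeR adjusted p = 0.0189), a fit that rests on the count of 0 in Frem1. With Frem1 left out of that mean the log2 fold change was 1.46 ± 0.62 (SE, edgeR adjusted p = 0.105) and the call was lost. In IT_A against the other glutamatergic subclasses it was 1.47 ± 0.36 (SE, edgeR adjusted p = 0.00444) with L6b left out. The IT_A call was lost with at most 100 nuclei per subclass and animal (0.50, edgeR adjusted p = 0.781) and after thinning (1.97, edgeR adjusted p = 0.253), where the fold was no smaller. Against L5PT, the pyramidal tract neurons of layer 5, Pvalb nuclei had a log2 fold change of 1.29 (95% interval 0.05 to 2.52, edgeR adjusted p = 0.113), and against Sst of 1.62 (95% interval 0.07 to 3.17, edgeR adjusted p = 0.169), both short of the threshold. With subclass labels predicted without the matrix genes, ACAN passed against L5PT (log2 fold change 1.48, edgeR adjusted p = 0.0448), and with nuclei thinned its direction was reversed (-0.85, edgeR adjusted p = 0.762).

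**Figure D3:**
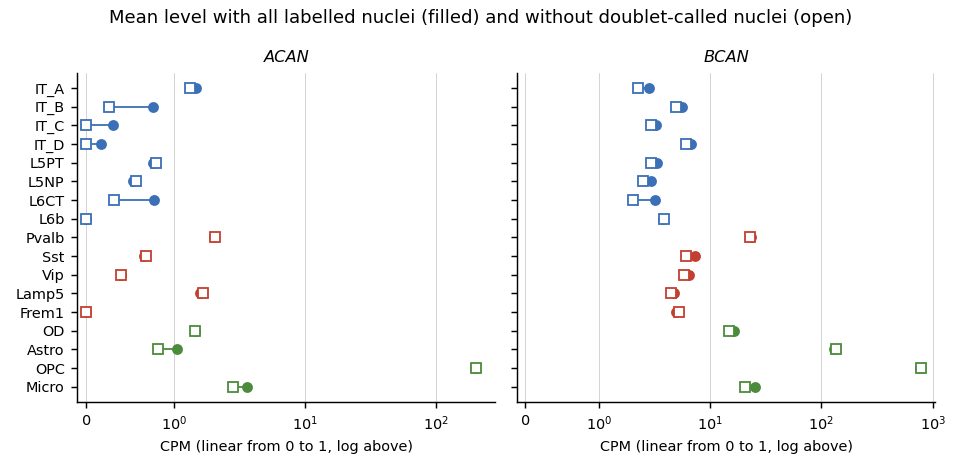
Mean level over 2 animals (x axis, CPM, linear from 0 to 1 and log above) of ACAN (left) and BCAN (right) in 17 subclasses, with filled circles for all labelled nuclei and open squares without doublet-called nuclei. ACAN falls to 0 in IT_C and IT_D and drops in IT_B and L6CT, while OPC, Pvalb and IT_A keep most of their level.

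BCAN encodes brevican, a lectican of the adult brain made by glia and by some neurons. It was highest in OPC at 730.0 CPM in animal 1 and 818 CPM in animal 2, and next in astrocytes at 145 and 117 CPM. Microglia, at 37.7 and 12.8 CPM from 28 UMIs, overlapped Pvalb nuclei, which at 22.3 and 24.2 CPM were the highest of the neurons. The remaining neuronal subclasses lay between 2.06 and 8.17 CPM, so that Pvalb stood apart from every other neuronal subclass in both animals. Against the mean of the other interneurons the log2 fold change of Pvalb was 2.04 ± 0.22 (SE, edgeR adjusted p = 1.60e-08), and against Sst it was 1.66 ± 0.27 (SE, edgeR adjusted p = 2.66e-05). OPC exceeded astrocytes by 2.52 ± 0.19 (SE, edgeR adjusted p = 6.08e-12), Pvalb by 5.01 on the log2 scale and the mean of the neuronal subclasses other than L6b and Frem1 by 7.15 ± 0.11 (SE, edgeR adjusted p = 1.92e-28). A BCAN UMI was found in 78.6% of OPC nuclei (50.6% after thinning), 30.3% of Astro nuclei (13.3% after thinning) and 14.2% of Pvalb nuclei (2.24% after thinning), against 1.14% of thinned microglia (interval 0.494 to 2.24%) and 1.33% of thinned oligodendrocytes. The interval in Pvalb nuclei (1.66 to 2.96%) overlaps that of thinned microglia and of thinned oligodendrocytes (1.00 to 1.74%). Per 1000 unthinned nuclei Pvalb held 169 and 188 UMIs and microglia 60.2 and 20.5. Without doublet-called nuclei BCAN was called lower in L6CT than in the other glutamatergic subclasses (-0.75 ± 0.24, SE, edgeR adjusted p = 0.03), and in Pvalb it stood at 22.9 CPM. IT_B was called upward among glutamatergic subclasses (0.78 ± 0.24, SE, edgeR adjusted p = 0.019), a call lost at similar folds with library size alone (0.65, edgeR adjusted p = 0.0533), with at most 100 nuclei (0.74, adjusted p = 0.489) and after thinning (0.80, adjusted p = 0.57). IT_D was called upward by DESeq2 (adjusted p = 0.0453) and with labels from other genes (edgeR adjusted p = 0.0479), but not in the fit used here.

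HAPLN1, the link protein that stabilises the bond of lecticans to hyaluronan, was found mainly in interneurons, astrocytes and OPC. Among interneurons it was highest in Lamp5, a subclass that in other mammals includes neurogliaform cells, at 210.0 CPM in animal 1 and 181 CPM in animal 2. Frem1 followed at 91.0 and 72.6 CPM, Vip at 34.7 and 35.6 CPM, Pvalb at 21.0 and 17.4 CPM and Sst at 6.48 and 3.04 CPM, and none of these ranges overlapped. Lamp5 exceeded the mean of the other interneurons by a log2 fold change of 3.10 ± 0.18 (SE, edgeR adjusted p = 1.73e-13) and Pvalb nuclei by 3.32 ± 0.25 (SE, edgeR adjusted p = 2.33e-11), while Sst lay below the mean of the others (-3.50 ± 0.29, SE, edgeR adjusted p = 2.13e-10). Both Lamp5 types overlapped, with 257 and 175 CPM in Lamp5_1 and 171 and 189 CPM in Lamp5_2. A HAPLN1 UMI was found in 60.8% of Lamp5 nuclei (15.9% after thinning), against 0.285% of thinned microglia.

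Glutamatergic neurons held little HAPLN1. Their subclass means ran from 0.598 CPM in L5NP to 3.67 CPM in L5PT, and the log2 fold change of GABAergic against glutamatergic subclasses was 4.60 ± 0.20 (SE, edgeR adjusted p = 1.42e-17). L5PT was the one glutamatergic subclass called for it (4.59 and 2.75 CPM; log2 fold change 1.73 ± 0.36, SE, edgeR adjusted p = 0.000731). With at most 100 nuclei and after thinning the fold was no smaller (2.05 and 2.33), but the call was lost (edgeR adjusted p = 0.0581 and 0.268). Among glia, OPC stood at 104 and 109 CPM and astrocytes at 102 and 109 CPM, with a log2 fold change between them of -0.02 (95% interval -0.49 to 0.46, edgeR adjusted p = 0.986). Oligodendrocytes were low at 2.25 and 3.66 CPM. Lamp5 exceeded OPC in CPM, by 0.90 ± 0.23 (SE, edgeR adjusted p = 0.00347) on the log2 scale, but this call was lost when at most 100 nuclei per subclass and animal were used (0.76, edgeR adjusted p = 0.0662) and when nuclei were thinned (0.71, edgeR adjusted p = 0.126).

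HAPLN4, also called Bral2, is a brain link protein known to bind brevican at nets. It was highest in Pvalb nuclei at 53.0 CPM in animal 1 and 50.5 CPM in animal 2, and L5PT followed at 18.2 and 15.3 CPM and L5NP at 9.57 and 7.55 CPM. No other neuronal subclass exceeded 6.24 CPM in either animal, and L6b held 0 UMIs in 109 nuclei. Pvalb exceeded the mean of the other interneurons by a log2 fold change of 4.57 ± 0.30 (SE, edgeR adjusted p = 3.13e-12), Sst by 4.85 ± 0.45 (SE, edgeR adjusted p = 4.19e-09) and L5PT by 1.50 ± 0.31 (SE, edgeR adjusted p = 0.00036). Within the glutamatergic class, with the empty L6b left out of the means, the log2 fold change was 2.84 ± 0.26 (SE, edgeR adjusted p = 2.03e-09) for L5PT, 1.50 ± 0.35 (SE, edgeR adjusted p = 0.00204) for L5NP and -1.21 ± 0.39 (SE, edgeR adjusted p = 0.0451) for IT_C. The L5NP call was lost after thinning (0.65, edgeR adjusted p = 0.901), and that of IT_C was not made with L6b included. A HAPLN4 UMI was found in 25.9% of Pvalb nuclei (4.06% after thinning) and 12.0% of L5PT nuclei (1.74% after thinning), against 0.0988% of thinned oligodendrocytes.

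HAPLN4 was nearly absent from OPC. A single UMI was counted in 1343 OPC nuclei, in animal 1, while Pvalb nuclei held 403 and 392 UMIs per 1000 nuclei. The ratio of the summed levels, Pvalb over OPC, was 193 (exact 95% counting interval 34.5 to 7616), and edgeR gave a log2 fold change of 7.53 ± 0.68 (SE, edgeR adjusted p = 5.36e-10). Astrocytes held 36 UMIs (7.13 and 4.45 CPM), below all neurons pooled in each animal (8.69 and 6.21 CPM). Against the mean of the neuronal subclasses they were nonetheless called upward (edgeR adjusted p = 0.0231). That call was lost with L6b and Frem1 left out of the neuronal mean (log2 fold change 0.71 ± 0.36, SE, edgeR adjusted p = 0.0975). Against that same mean OPC was lower (-3.69 ± 0.95, SE, edgeR adjusted p = 0.00218), a call not made in edgeR with L6b and Frem1 included and the deposited labels, but made by DESeq2 (adjusted p = 0.0369) and with labels from other genes (edgeR adjusted p = 0.00249).

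TNR, the tenascin that cross-links lecticans, was detected in every subclass and was highest in OPC and Pvalb nuclei. OPC stood at 1263 CPM in animal 1 and 1161 CPM in animal 2 and Pvalb at 349.7 CPM in animal 1 and 331 CPM in animal 2, and every other subclass lay below both in each animal. Deep-layer glutamatergic subclasses followed, with L6CT at 187 and 196 CPM, L5PT at 162 and 170.1 CPM, L5NP at 151 and 172 CPM and L6b at 129 and 153 CPM. IT_B, at 19.6 and 25.4 CPM, was the lowest glutamatergic subclass, and Lamp5, at 16.2 and 20.2 CPM, the lowest of the interneurons. Astrocytes stood at 16.8 and 14.2 CPM.

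The tests followed this order. The log2 fold change was 3.06 ± 0.14 (SE, edgeR adjusted p = 3.04e-16) for Pvalb against the mean of the other interneurons, -2.25 ± 0.25 (SE, edgeR adjusted p = 3.69e-08) for Lamp5 and 0.64 ± 0.17 (SE, edgeR adjusted p = 0.00545) for Sst, the last lost with Frem1 left out of the mean (edgeR adjusted p = 0.0501). Among glutamatergic subclasses it was 1.09 ± 0.12 (SE, edgeR adjusted p = 8.00e-08) for L6CT, 0.92 ± 0.13 (SE, edgeR adjusted p = 3.18e-06) for L5PT and -2.32 ± 0.17 (SE, edgeR adjusted p = 1.13e-11) for IT_B. With each subclass weighted equally, GABAergic subclasses lay below glutamatergic ones (-0.74 ± 0.10, SE, edgeR adjusted p = 1.89e-07). With nuclei pooled by class the direction was the reverse, at 221 and 209 CPM in GABAergic and 105 and 121 CPM in glutamatergic neurons, and at 63.8 and 56.3 CPM in interneurons other than Pvalb. OPC exceeded Pvalb by 1.79 on the log2 scale and astrocytes by 6.24 ± 0.24 (SE, edgeR adjusted p = 4.92e-18), and astrocytes lay below neurons (-2.46 ± 0.20, SE, edgeR adjusted p = 9.88e-12). A TNR UMI was found in 88.3% of OPC nuclei (64.7% after thinning) and 70.4% of Pvalb nuclei (23.5% after thinning), against 1.71% of thinned microglia.

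PTPRZ1, the receptor phosphatase, was highest in OPC at 2699 CPM in animal 1 and 2881 CPM in animal 2 and next in astrocytes at 1229 and 1254 CPM. OPC exceeded astrocytes by a log2 fold change of 1.13 ± 0.17 (SE, edgeR adjusted p = 4.56e-06) and the neuronal mean by 5.72 ± 0.09 (SE, edgeR adjusted p = 3.38e-28). Mature oligodendrocytes, at 22.5 and 30.6 CPM, lay far below their precursors (6.55 ± 0.23, SE, edgeR adjusted p = 5.03e-19). Among neurons it was higher in IT_A, IT_B and IT_C than in Pvalb nuclei. IT_B stood at 148 and 159 CPM, IT_A at 137 and 137 CPM and IT_C at 112 and 121 CPM, and each exceeded the mean of the other glutamatergic subclasses (log2 fold change 1.50 ± 0.13 (SE), 1.23 ± 0.13 (SE) and 0.91 ± 0.13 (SE), largest edgeR adjusted p = 7.04e-06). IT_D, at 28.2 and 36.3 CPM, lay below the mean of the others (-1.05 ± 0.20, SE, edgeR adjusted p = 0.000282), a call lost after thinning (-0.58, edgeR adjusted p = 0.629). Sst was the highest interneuron subclass at 86.5 and 92.5 CPM (1.87 ± 0.17, SE, edgeR adjusted p = 5.52e-10), and Pvalb stood at 46.6 and 43.7 CPM, below Sst (-0.97 ± 0.19, SE, edgeR adjusted p = 0.00037). Against L5PT the log2 fold change of Pvalb was -0.19 (95% interval -0.58 to 0.20, edgeR adjusted p = 0.502). A PTPRZ1 UMI was found in 99.0% of OPC nuclei (92.5% after thinning) and 90.3% of Astro nuclei (66.0% after thinning), against 3.00% of thinned microglia.

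Counted over the 6 members, 85 of 138 tests over 23 contrasts passed an edgeR adjusted p of 0.05, where 10.1 to 55.2% of all genes passed in a contrast. For Pvalb against the mean of the other interneurons all 6 passed, 5 upward and HAPLN1 downward (-1.04 ± 0.21, SE, edgeR adjusted p = 0.000415), beside 22.5% of the 17227 genes tested (13.6% upward and 8.90% downward). With at most 100 nuclei per subclass and animal ACAN (edgeR adjusted p = 0.61), HAPLN1 (-0.97, edgeR adjusted p = 0.145) and PTPRZ1 (0.75, edgeR adjusted p = 0.0577) lost their calls. With Frem1 left out of that mean TNR, BCAN, HAPLN1 and HAPLN4 kept their calls, and ACAN and PTPRZ1 (edgeR adjusted p = 0.0648) did not pass. For GABAergic against glutamatergic subclasses 4 of 6 passed (39.9% of genes), with HAPLN1 and BCAN higher and TNR and PTPRZ1 lower. The BCAN call was lost with at most 100 nuclei (edgeR adjusted p = 0.0655) and after thinning (log2 fold change 0.24). For OPC against neurons 5 of 6 passed, all upward (44.3% of genes, 23.4% upward), and for OPC against oligodendrocytes again 5 upward (38.0%, 20.2% upward). Astrocytes against neurons gave 5 calls (55.2%), of which TNR was downward, and OPC against astrocytes gave 5 (31.0%), of which HAPLN4 was downward, a call lost with at most 100 nuclei (-5.36, edgeR adjusted p = 0.116). All 6 members passed the filter on low counts, ACAN and HAPLN4 through the few subclasses where they are high.

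Between single pairs of subclasses the members that passed were not the same. Against Sst, the other large interneuron subclass, BCAN, HAPLN1, HAPLN4 and TNR were higher and PTPRZ1 lower in Pvalb (5 of 6 passed, 16.2% of genes). Against L5PT the same 4 were higher (4 of 6 passed, 30.9% of genes). Against OPC the 6 members all passed (41.3% of genes), with HAPLN4 higher in Pvalb and the other 5 lower. Lamp5 lay above Pvalb for HAPLN1 and below it for BCAN (-2.31 ± 0.38, SE, edgeR adjusted p = 2.76e-05), HAPLN4 (-3.73 ± 0.47, SE, edgeR adjusted p = 5.62e-07), TNR and PTPRZ1 (5 of 6 passed, 18.2% of genes). Lamp5 against OPC gave 6 calls (31.2% of genes), upward for HAPLN1 and HAPLN4. After thinning HAPLN1 and HAPLN4 lost their calls against L5PT, at log2 fold changes of 1.78 and 1.08 (edgeR adjusted p = 0.0677 and 0.0912), and BCAN and HAPLN1 theirs against Sst, at 1.32 and 1.19 (edgeR adjusted p = 0.117 and 0.327). With at most 100 nuclei PTPRZ1 lost its call against Sst (-0.83, edgeR adjusted p = 0.0794). BCAN in Lamp5 against Pvalb missed the threshold after thinning (-3.15, edgeR adjusted p = 0.0503). HAPLN4 in Lamp5 against OPC, which rests on 10 UMIs against 1, lost its call with at most 100 nuclei and after thinning, at 4.66 and 4.25 (edgeR adjusted p = 0.174 and 0.288).

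**Figure D4:**
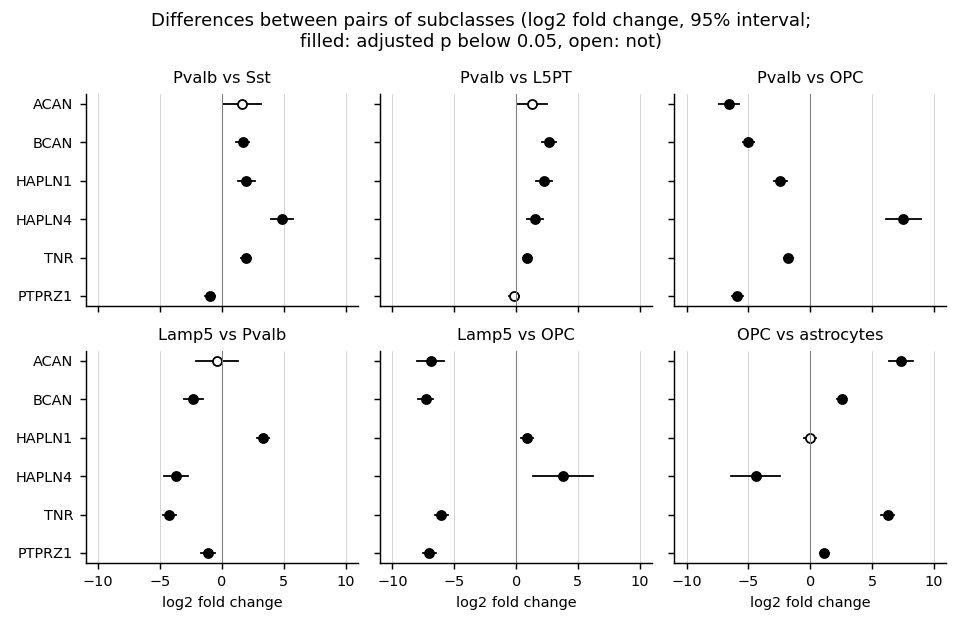
Log2 fold change (x axis) of the 6 genes (y axis) for 6 pairs of subclasses, with 95% intervals as lines, filled circles for an edgeR adjusted p below 0.05 and open circles otherwise. HAPLN4 is the one gene higher in Pvalb than in OPC, HAPLN1 the one higher in Lamp5 than in Pvalb, and the HAPLN1 interval for OPC against astrocytes runs from -0.49 to 0.46.

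Across the remaining subclass contrasts the calls were fewer. Sst had 3 members called (16.4% of genes), Vip 3 (11.7%), Lamp5 3 (12.4%) and Frem1 3 (10.1%), each against the mean of the other interneurons. Several of these calls missed the threshold under an alternative. TNR in Frem1 was lost under 6 alternatives, at log2 fold changes of -0.64 with library size alone (edgeR adjusted p = 0.0519), -0.62 without doublet-called nuclei (0.0951), -0.68 with only the classes compared (0.054), -0.57 with labels from other genes (0.251), -0.53 with at most 100 nuclei (0.368) and -0.28 after thinning (0.905), against -0.68 in the fit used here. Without doublet-called nuclei PTPRZ1 was also lost in Vip (-0.87, edgeR adjusted p = 0.0637) and Lamp5 (-0.88, edgeR adjusted p = 0.0658), and after thinning all 3 Vip calls were lost, at -0.29 for TNR, -0.24 for HAPLN4 and -0.52 for PTPRZ1. With at most 100 nuclei PTPRZ1 was lost in Vip, Lamp5 and Frem1 (-0.80, -0.87 and -0.87, edgeR adjusted p = 0.212, 0.106 and 0.117). In Lamp5 and Frem1 it was lost after thinning (-1.19 and -0.90, edgeR adjusted p = 0.255 and 0.528) and with labels from other genes (-0.76 and -0.81, edgeR adjusted p = 0.0751 and 0.0906). Among glutamatergic subclasses IT_A had 2 (18.2%), IT_B 3 (17.5%), IT_C 2 (10.4%), IT_D 1 (14.4%), L5PT 4 (15.4%), L5NP 3 (15.7%), L6CT 1 (13.3%) and L6b 1 (11.2%). In L5PT these were HAPLN4, HAPLN1 and TNR upward and PTPRZ1 downward. This PTPRZ1 call was lost without doublet-called nuclei (-0.50, edgeR adjusted p = 0.0527) and with at most 100 nuclei (-0.48, edgeR adjusted p = 0.247). After thinning its fold was nearly gone (-0.013). The 3 L5NP calls, TNR and HAPLN4 upward and PTPRZ1 downward, were all lost after thinning (0.41, 0.65 and -0.87, edgeR adjusted p = 0.252, 0.901 and 0.191). PTPRZ1 in L6CT missed the threshold, at 0.37 ± 0.14 (SE, edgeR adjusted p = 0.0797) on the log2 scale, but passed with the animal as a replicate block (0.37 ± 0.10, SE, edgeR adjusted p = 0.00603).

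Levels also varied within subclasses, described here by the authors' types with no test, since types are clusters of the same nuclei. Pvalb interneurons fell into a pair of types with less TNR and a set with more. TNR stood at 93.8 and 117 CPM in Pvalb_4 and 101 and 99.2 CPM in Pvalb_5, and between 361 and 516 CPM on average in Pvalb_1, Pvalb_2, Pvalb_3 and Pvalb_6. HAPLN4 followed in part, with 3.78 and 5.70 CPM in Pvalb_4, 25.0 and 22.5 CPM in Pvalb_5, 27.8 and 26.4 CPM in Pvalb_6 and 60.2 to 83.6 CPM in the other three. PTPRZ1 had the opposite order, with 105 and 108 CPM in Pvalb_4 and 72.3 and 82.6 CPM in Pvalb_5 against 25.4 to 36.9 CPM elsewhere. BCAN was low in Pvalb_4 (12.9 and 4.89 CPM) but not in Pvalb_5 (27.6 and 33.1 CPM). GAD1, a defining marker of inhibitory neurons, stood at 678 CPM in Pvalb_4 and 497 CPM in Pvalb_5, and between 448 and 595 CPM in the other Pvalb types. GAD1 does not separate Pvalb from Sst nuclei, and PVALB has no symbol. Pvalb_4 lay nearer to the Sst than to the Pvalb mean for TNR (106 against 90.0 CPM in Sst), PTPRZ1 (106 against 89.5), BCAN (8.87 against 7.32), HAPLN1 (3.52 against 4.76) and HAPLN4 (4.74 against 1.85), but not for ACAN. In Pvalb_5 BCAN was nearer to the Pvalb mean. Whether these types belong to Pvalb was not tested. In Sst, type Sst_4 had the highest mean level of TNR, PTPRZ1 and HAPLN1, with PTPRZ1 at 178 and 164 CPM.

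In the oligodendrocyte lineage most of the TNR of oligodendrocytes came from 1 small type. OD_5, with 34 and 28 nuclei, stood at 1464 and 1788 CPM for TNR, while OD_1 to OD_4 averaged 10.2 to 17.2 CPM. It held 82.1% and 79.2% of all oligodendrocyte TNR UMIs, and 58.3% and 57.4% of those of BCAN. BCAN stood there at 320.3 and 345 CPM and PTPRZ1 at 221 and 328 CPM. Its myelin markers were lower than in the other types but present (MOG 508 CPM against 1079.9 to 1699.6 CPM), and PDGFRA stood at 20.9 CPM against 993 CPM in OPC_1. Doublet calls made up 11.3% of OD_5 nuclei and their part in these levels was not tested. With OD_5 left out, oligodendrocytes stood at 11.6 CPM for TNR and 7.06 CPM for BCAN, and the log2 fold change of OPC against them for TNR moved from 4.23 to 6.55. OPC_2, with 26 nuclei, had less BCAN (216 and 188 CPM), TNR (504 and 586 CPM) and PTPRZ1 (1313 and 1130.4 CPM) than OPC_1, and its ACAN was 378 and 147 CPM. The 3 astrocyte types were close to one another, with BCAN at 128 to 132 CPM and PTPRZ1 at 1192 to 1280.2 CPM.

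**Figure D5:**
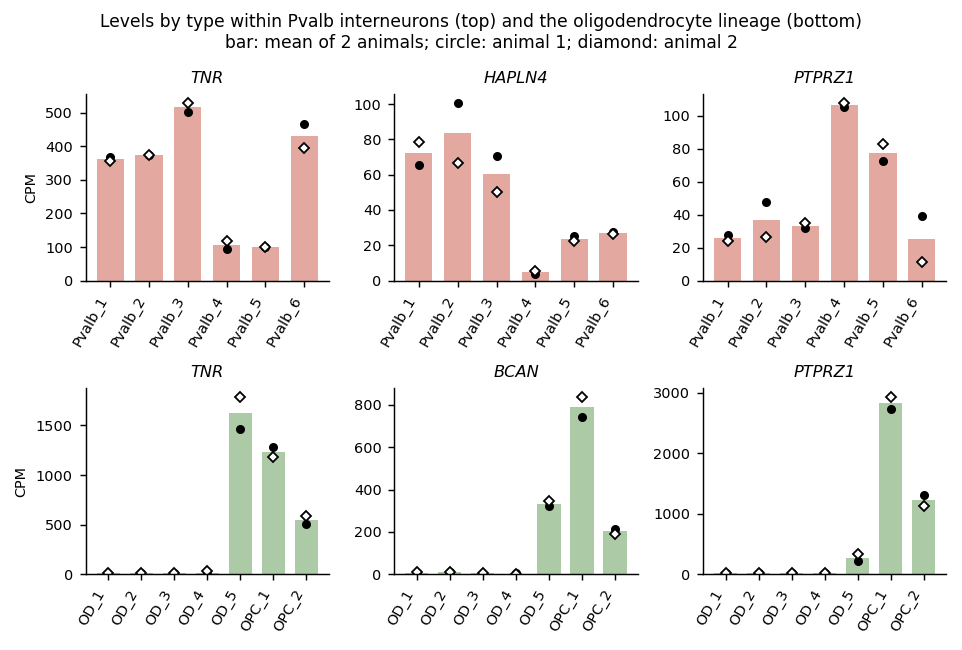
Level (y axis, CPM, linear) of TNR, HAPLN4 and PTPRZ1 in the 6 Pvalb types (top) and of TNR, BCAN and PTPRZ1 in the oligodendrocyte and OPC types (bottom), with bars for the mean of 2 animals, circles for animal 1 and diamonds for animal 2. TNR is low and PTPRZ1 high in Pvalb_4 and Pvalb_5, and TNR in OD_5 reaches 1464 and 1788 CPM while OD_1 to OD_4 stay at or below 30.2 CPM.

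Other genes of the matrix were followed with the same tests, from a list of 52 of which 40 had a symbol and 33 passed the count filter. For Pvalb against the other interneurons 7 were higher, 5 lower and 21 did not pass, beside 13.6% of all genes higher and 8.90% lower. Of those with at least 20 CPM on the higher side, the largest rises were those of CRTAC1, a secreted cartilage protein (log2 fold change 3.74 ± 0.17, 235 against 18.3 CPM), XYLT1, which starts glycosaminoglycan chains on core proteins (3.13 ± 0.15, 1514 against 261 CPM), and PLXNA1, a receptor of semaphorins (1.84 ± 0.18). The largest falls were those of CHST15, a chondroitin sulfate sulfotransferase (-2.46 ± 0.34), and SEMA3A, a semaphorin that binds nets (-1.26 ± 0.28). In Lamp5 interneurons CHST15 fell as well (-3.78 ± 0.45), while the sign was opposite to that in Pvalb for XYLT1 (-1.55 ± 0.21), PLXNA1 (-2.49 ± 0.35) and SEMA3A (3.07 ± 0.23, 1039 against 179 CPM), with 2 list genes higher and 7 lower (12.4% of all genes called). These contrasts share interneuron sums, so their signs are not independent.

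For OPC against neurons 17 list genes were higher, 9 lower and 7 did not pass, beside 23.4% of all genes higher and 21.0% lower. By the same rule CSPG4, the NG2 proteoglycan that marks OPC (29.4 against 0.336 CPM), PTN, a ligand of PTPRZ1 (4.43 ± 0.11, 548 against 30.7 CPM), and CHST11, a chondroitin sulfotransferase (4.00 ± 0.11), rose most, and SEMA3A fell most (-3.28 ± 0.40). Astrocytes had 14 higher and 11 lower (55.2% of all genes called), led by TNC, the tenascin of astrocytes (6.35 ± 0.26, 105 against 2.00 CPM), and PTN (5.92 ± 0.10, 1497 against 30.7 CPM). Between OPC and oligodendrocytes 18 were higher and 3 lower in OPC (20.2% and 17.9% of all genes), the lower ones being ADAMTS4, a protease that cuts lecticans (-5.54 ± 0.58), MMP2, a matrix metalloprotease (-5.15 ± 0.30), and CHST7 (-1.90 ± 0.39). The median log2 fold change over the tested list genes was 1.11 (over all genes tested -0.01, without list genes at 0 in a subclass compared 0.88) for OPC against neurons, -0.21 (over all genes tested 0.01, without list genes at 0 in a subclass compared -0.17) for astrocytes against neurons and 0.20 (over all genes tested 0.06, without list genes at 0 in a subclass compared 0.14) for Pvalb against the other interneurons.

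The genes whose levels were most like a member's over the 18 subclass means were sought by Pearson correlation of log2(CPM + 1), as a description. ACAN was most like TMEM233 (r = 0.977) and PDGFRA, BCAN most like NEU4 (0.940) and COL9A2, and these 4 genes were highest in OPC. Among the 5 genes most like HAPLN1 were GLDC (0.862) and NR2E1, both highest in astrocytes. HAPLN4 was most like BRAP (0.741) and SCRT2, both highest in Pvalb, TNR most like ADAMTS2 (0.718) and NETO1, and PTPRZ1 most like CRTAP (0.874) and CCDC88C. By Spearman correlation 0 to 2 of the 5 closest genes were the same, so the names depend on the measure. The 18 points share libraries, and depth differs between subclasses.

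In the RefSeq annotation of the opossum genome (mMonDom1, used for gene order alone, since the authors counted on another assembly) link protein and lectican genes lie side by side. HAPLN3 neighbours ACAN on chromosome 1, HAPLN2 neighbours BCAN on chromosome 2, and on chromosome 3 VCAN neighbours HAPLN1 and NCAN neighbours HAPLN4. NCAN, VCAN and HAPLN2 have no symbol in the deposited annotation and were not analysed here.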

How the data were processed

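The authors deposited raw UMI counts per gene and nucleus, made with Cell Ranger 6.1.1 per the submitters' processing notes (the matrix header names 7.1.0), with intronic reads counted, on the opossum assembly ASM229v1 with Ensembl genes whose 3′ ends the authors had extended. Animals and libraries are numbered here by the sample titles. The deposited metadata numbers the libraries otherwise, by the library names that the labels give for the same samples. Nuclei, subclasses, types and Scrublet doublet calls were taken from the deposited metadata, whose doublet score is a fraction that the authors computed with Scrublet and of which the resulting call alone was used. Raw counts of labelled nuclei were summed by animal and subclass (36 sums) and tested with the quasi-likelihood test of edgeR 4.0.16 in R 4.3.3, with TMM scaling, filterByExpr (17227 genes passed) and Benjamini-Hochberg adjustment over all genes within a contrast, at a threshold of 0.05. Animal was not a term of the model. Sums of 1 animal are paired by origin: their deviations from the subclass means correlated between 0.00345 and 0.597 (median 0.116, 153 pairs of subclasses). CPM scales counts to the total UMIs of a sum. Shares of nuclei were also computed after thinning to 1000 UMIs, with exact binomial 95% intervals that cover counting error only. DESeq2 1.42.0 was run as an alternative, and the edgeR step was tested on simulated data. Members and gene lists were chosen with earlier results of these data known. Other matrix genes are named, up to 3 per direction, by the largest fold change among called genes with at least 20 CPM on the higher side and 1 direction in both animals, and up to 5 genes by likeness to a member were found, of which 2 per member are named. A gene among them is not reported here. Nuclei in clusters that the authors left out of their subclasses (2315) enter no comparison. Python 3.11.15, numpy 2.4.6, pandas 2.3.3, scipy 1.17.1 and scikit-learn 1.9.0 were used.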

Additional observations from a re-analysis of the deposited data

Results flagged for a closer look

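The 6 genes were also counted in the 2315 nuclei of clusters that carry no subclass label, as ambiguous or doublet clusters, and that no comparison above uses. Each gene stood there above the level that 3 UMIs would give (0.204 CPM). The mean over 2 animals was 3.57 CPM for ACAN, 27.04 CPM for BCAN, 18.7 CPM for HAPLN1, 9.01 CPM for HAPLN4, 138 CPM for TNR and 187 CPM for PTPRZ1. In the ambiguous non-neuronal clusters, with 138 nuclei in each animal, PTPRZ1 stood at 299 and 348 CPM, HAPLN1 at 45.9 and 71.7 CPM and BCAN at 94.4 and 43.6 CPM. In the GABAergic doublet clusters TNR stood at 160.0 and 175 CPM. Groups of 2 animals are too small for a test of single outlying samples.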

How the results depend on the processing

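Of 138 tests of a member in a contrast, 85 passed the threshold (10.1 to 55.2% of all genes passed in a contrast), and 55 of these passed it under every alternative with a test. Over the alternatives these 85 gave 875 values, of which 817 kept direction and call, 58 lost the call and 0 changed sign. Each animal alone, which leaves fold changes without a test, is not among them. Thinning nuclei to 1000 UMIs lowered the calls from 18 to 10 for the interneuron subclasses, from 17 to 9 for the glutamatergic subclasses, from 4 to 2 for Pvalb against L5PT and from 5 to 3 for Pvalb against Sst. Using at most 100 nuclei per subclass and animal lowered those of the interneuron subclasses to 11. With the animal as a replicate block the interneuron calls numbered 18 and the glutamatergic ones 18, and the block lost no call and gained 1, PTPRZ1 in L6CT. DESeq2 and leaving out the low-count filter lost none either and gained 3 and 1. Fitting only the classes compared gave no value for contrasts between neurons and glia. The alternatives that leave out L6b and Frem1, or type OD_5, were chosen after seeing the data.

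Without thinning, the share of nuclei with a UMI moved from 17.7 to 37.7% for ACAN in OPC, from 50.6 to 78.6% for BCAN in OPC, from 15.9 to 60.8% for HAPLN1 in Lamp5, from 4.06 to 25.9% for HAPLN4 in Pvalb, from 64.7 to 88.3% for TNR in OPC and from 92.5 to 99.0% for PTPRZ1 in OPC. Changes of sign were followed for the tests that passed and for a chosen few that had not. Those found were all of tests that had not passed. HAPLN1 in OPC against astrocytes came to 0.019 with library size alone, 0.22 with at most 100 nuclei, 0.13 after thinning and 0.026 with only glial sums in the fit. After thinning, ACAN came to -0.85 for Pvalb against L5PT, -0.067 for Pvalb against Sst and 1.37 for Lamp5 against Pvalb. PTPRZ1 in Pvalb against L5PT came to 0.039 with at most 100 nuclei. The cause of these changes was not tested.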
